A study of Rattus norvegicus with 10 samples.

Results

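Small nucleolar RNAs and the other small structured RNAs that a genome annotation names by their Rfam family were followed here in rat liver. The members were the rows of the deposited isoform table whose gene name is an Rfam family number, without the families of the small ribosomal RNAs, the signal recognition particle, 7SK and Y RNAs and the major spliceosomal RNAs. They came to 911 of 51430 rows, in 223 families, and each row was read as a locus. Of these, 857 rows were reference annotations of 35 to 428 nucleotides (nt), with a median of 127 nt. The other 54 were transcripts, mostly longer, that the authors' assembler had built over or near such a locus and that carry its name. The 10 livers came from wild type Wistar rats. All had been fed a diet with 60% of calories from fat over 4 weeks and then given 35 mg/kg streptozotocin, which destroys pancreatic beta cells, after a fast of 16 h, and all were above 16.7 mmol/L blood glucose 3 days later. Of the livers, 5 came from rats after sleeve gastrectomy (SG), the surgical removal of the greater curve of the stomach, and 5 from rats after a sham operation (SHAM). Rats were allotted at random to groups matched for body weight. The SG livers are labelled 3 months after surgery and the SHAM livers carry no time, so time and operation cannot be told apart. The labels do not say that each library is a separate rat, and p-values then measure only the spread between libraries.

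Box C/D RNAs guide the methylation of ribose, and box H/ACA RNAs guide the conversion of uridine to pseudouridine, in ribosomal and spliceosomal RNA. Small Cajal body RNAs do the same for spliceosomal RNA in the Cajal body. In mammals most of these RNAs are cut from the introns of host genes, often genes for ribosomal proteins and translation factors, while U3, U8, RNase MRP RNA and vault RNA have their own genes. U3 and RNase MRP take part in cutting the precursor of ribosomal RNA.

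Library totals ran from 65824088 to 92110190 estimated counts. Hepatocyte markers such as Alb summed to 33744.2 FPKM or more in every library (FPKM, fragments scaled to transcript length and library size), and of 3 markers of pancreatic acinar cells Prss1 averaged 0.00244, Cpa1 0.00218 and Cela1 2.39 FPKM. The library SG 2 stood apart: stellate cell markers summed to 82.4 FPKM there, where the remaining SG libraries had 29.5 to 40.4 and the SHAM libraries 22.4 to 46.9. Kupffer cell and macrophage markers summed to 499.7 FPKM in SG 2, 207.1 to 257.4 in the remaining SG libraries and 179.7 to 418.4 in SHAM. SG 2 also had the highest CPM (counts scaled to the library total) for 24 of the 41 reference loci with a mean of at least 100 counts. The 41 include rows of U3, whose reads are divided between rows as described below. Results are therefore given with and without SG 2 where it moves them.

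The libraries held few reads from most loci. Only 221 of the 857 reference loci reached a mean of 1 FPKM, 31 reached 10 FPKM, and 19 stood at 0 in all 10 libraries. A mean of at least 10 counts, the minimum for a test, was met by 244 reference loci and 53 assembled rows, 297 in all. Just inside that minimum lay RF00072 on chromosome 9, at 10 counts, and just outside RF00413 on chromosome 6, at 9.9. The longest loci stood apart in level. The 41 loci of at least 200 nt had a median of 5.45 FPKM and 68.3% of them entered the test, whereas the 249 loci under 100 nt had a median of 0.351 FPKM and 21.3% entered. Between them the medians were 0.258 FPKM for 535 loci from 100 nt to under 150 nt and 0.409 for 32 loci from 150 nt to under 200 nt, so level did not rise steadily with length. The libraries were made with a mean insert of 300 bp, and 847 of the 857 reference loci are shorter than that, and the part of length in these levels was not tested.

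**Figure D1:**
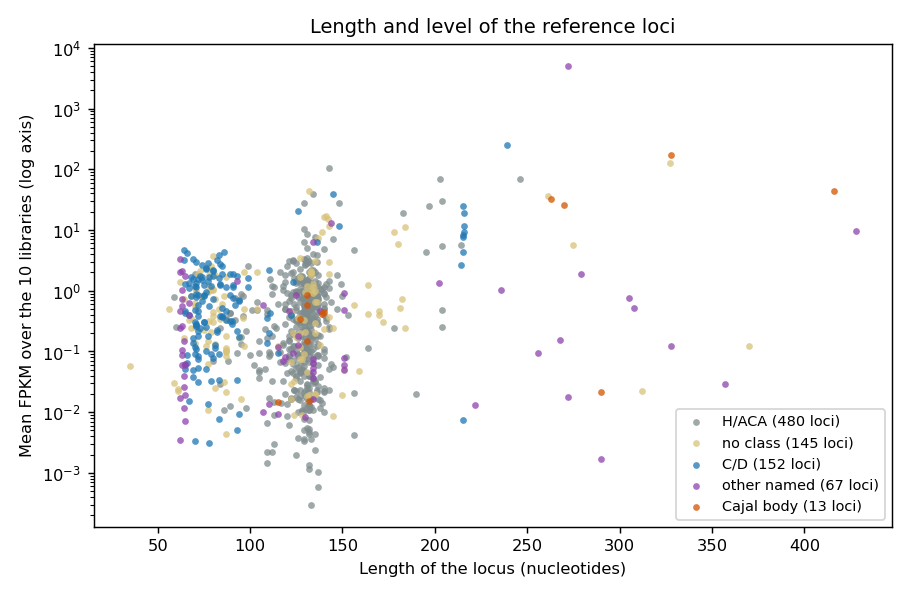
Mean FPKM over the 10 libraries (vertical, log axis) against locus length in nucleotides (horizontal) for reference loci above 0 FPKM, coloured by class. H/ACA loci crowd near 130 nt and C/D loci near 80 nt, mostly below 1 FPKM, while the loci above 100 FPKM are, with 1 exception of 143 nt, longer than 200 nt.

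Every locus of a family was given the class most common among the table's descriptions of that family's rows. Where the descriptions gave none, the class came from a fixed list of families. There were 480 H/ACA reference loci, 152 C/D loci, 13 Cajal body loci, 67 loci of other named RNAs and 145 of families without a class here. The H/ACA number includes RF00560, a family of the box 17 type by the table's description, with 147 loci dispersed over the genome. Of those 147, 19 entered the test and the median was 0.109 FPKM. At the other end, 100 of 222 families had a single reference locus.

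Host genes were read from coordinates, in the Rnor_6.0 build of the table. The span of a named gene on the same strand held 352 of the 857 reference loci, in 262 hosts, and a further 176 loci lay only inside a gene on the opposite strand. The median level was 0.563 FPKM in same-strand hosts, 0.295 opposite a gene and 0.0848 with no host. The table gives no exon coordinates, so intron and exon cannot be told apart for any locus. Taf1d, a subunit of the RNA polymerase I factor SL1, held 8 loci, Rpl4 and Tex14 held 6 each, and Eif4a2, Nop56 and Nop58 held 5 each. Ribosomal protein genes, 24 of them, held 50 loci. A spliced assembled row of 10 exons at chr1:224921302-224924569 held 8 C/D loci with no named gene on its strand, and a row of 3 exons at chr13:78852741-78854109 held 4.

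Many snoRNA hosts belong to the class of genes whose messenger RNA starts with a C followed by pyrimidines, a tract through which growth signals control translation. The tract searched here was a C followed by 4 letters each C or T, on the sense strand only, with its C within 5 bases of the annotated start. It was present in 51 of the 205 hosts with a RefSeq promoter (24.9%), in 8 of 19 ribosomal protein hosts (42.1%), and in 17% of all 27457 RefSeq promoters. The windows of 30 bases below, 15 before and 15 from the start, show hosts of many or abundant loci with and without it. They are RefSeq sequences of the GRCr8 build, 5′ to 3′, with the tract in capitals.
Rpl4 (chr8:73566462-73566491, + strand): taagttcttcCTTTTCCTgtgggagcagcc
Eef1b2 (chr9:72074076-72074105, + strand): tttccggccggtcccggCCCTTTTTCTCCC
Snx5 (chr3:152094494-152094523, - strand): gccgctgtgcgcgCTCTTTCTCgaggcgtg
Taf1d (chr8:20427961-20427990, + strand): ttcatcctagtcctagtcaggctgctgggc
Eif4a1 (chr10:54888588-54888617, - strand): ggcgggcactccgccctagattctaaggat
Nop58 (chr9:68615059-68615088, + strand): catgcggagaggtgtggaacgtctaggcaa
Absence of the tract says only that none begins within 5 bases of the annotated start. The windows of Rpl13a and Rpl5, for example, hold such letters farther from the start and were not counted. Among the 22 hosts of 3 or more loci with a sequence, 3 had it. A few members are described in the table as microRNAs, 5 rows in all, and RefSeq held 1 of them. It is printed with its seed, bases 2 to 8, in capitals, because the locus named RF00090 at chr18:28353093-28353204 carries its name, with a mean of 2.3 counts and no test.
rno-miR-1949: uAUACCAGgaugucagcauaguu

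RNase MRP RNA (RF00030, chr5:58994682-58994953, 272 nt) was the most abundant member by far. Its mean of 5025.5 FPKM was followed by 247.4 FPKM for the C/D box 17 locus RF00567 in Snx5, and it made up 77.4% of the summed CPM of all reference loci. In SG it stood at 1539.6, 1901.9, 1633.9, 1997.0 and 1310.3 CPM, and in SHAM at 1234.5, 1808.5, 1617.8, 2003.0 and 946.1. The groups overlapped over nearly their whole range, and the lowest library was SHAM 5. The log2 fold change of SG over SHAM was 0.13 ± 0.24 (SE), with a 95% interval from -0.42 to 0.68, so a change of 2-fold lies outside it.

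RNase P RNA (RF00009) processes the 5′ end of transfer RNA and shares proteins with RNase MRP. Its highest reference locus, at chr1:246973112-246973539, lies within the span of the transporter gene Slc1a1 and averaged 9.545 FPKM, where Slc1a1 itself averaged 0.0163. This locus had 3.38, 5.72, 4.32, 5.62 and 4.38 CPM in SG and 3.85, 5.42, 5.79, 5.92 and 3.54 in SHAM. The groups overlapped, with a log2 fold change of -0.08 ± 0.25. The other 5 tested reference copies averaged 0.5161 to 1.911 FPKM. The copy at chr3:38449862-38450169 had 0.082, 0.191, 0.116, 0.163 and 0.0803 CPM in SG and 0.299, 0.213, 0.175, 0.317 and 0.286 in SHAM. The groups overlapped only through SG 2 and SHAM 3, and the log2 fold change was -1.02 ± 0.38 (edgeR unadjusted p = 0.0245, Benjamini-Hochberg adjusted p = 0.866). An assembled row of 9150 nt opposite Cyp3a18 on chromosome 12 also bears this family's name, with SG libraries at 48.1 to 599.9 CPM and SHAM libraries at 123.1 to 784.3.

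The protein genes of RNase P and MRP were read from gene sums. Of 10 genes listed, 0 passed in edgeR, as did 0% of all 21562 genes, and 0 were below an unadjusted p of 0.05, where 4.01% of all genes were. Of the 10, 6 had a positive value and 3 a negative one, and the median log2 fold change was 0.05. Rpp14 had the smallest p of the list, at 0.17 ± 0.10 (unadjusted p = 0.117), and Pop4 stood at 0.25 ± 0.17.

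U3, the C/D RNA of early ribosomal RNA processing, was divided over several rows of the table. Annotation places 2 rows of almost the same span at each of 4 sites, named RF00012 and RF01848 after a pair of U3 families, and their ends differ by 1 base. There was also a row at 0.3 mean counts, which makes 9 rows at 5 places. Within a site, reads went to either row depending on the library. At chr10:74757884-74758098 the RF00012 row had 10.4, 0.404, 14.7, 10.1 and 0.677 CPM in SG, while the RF01848 row on the same start had 0.563, 10.7, 0.644, 0.0869 and 3.91. In SG 2 and SG 5 the reads were thus listed under the other name. The row values of U3 cannot be read alone for that reason: RF00012 at chr10:74778189-74778403 had 9.48, 8.92 and 1.46 CPM in SG 2, SG 4 and SG 5, at most 0.228 elsewhere, and a log2 fold change of 6.38 ± 2.55 that came down to 1.32 ± 0.65 once both rows were summed.

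Summed over all 9 rows, U3 stood at 23.1, 40.3, 30.9, 28.6 and 19 CPM in SG and at 15.9, 17.9, 13.3, 13.9 and 16.5 CPM in SHAM. Every SG library lay above every SHAM library, and SG 2 was the highest. Groups that do not overlap in this direction were found for 0.47% of the 41681 tested isoforms. The means were 28.4 ± 8.11 and 15.5 ± 1.89 CPM (SD, n = 5). The sum was formed after the row values were seen. Entered as 1 row in the fit of all isoforms, it had a log2 fold change of 0.87 ± 0.22 (95% interval 0.38 to 1.36), with an edgeR unadjusted p of 0.00275 and a Benjamini-Hochberg adjusted p of 0.866, so it did not pass. DESeq2 on the same rows gave 0.87 with an adjusted p of 0.0278. Without SG 2 the edgeR value was 0.69 ± 0.18.

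**Figure D2:**
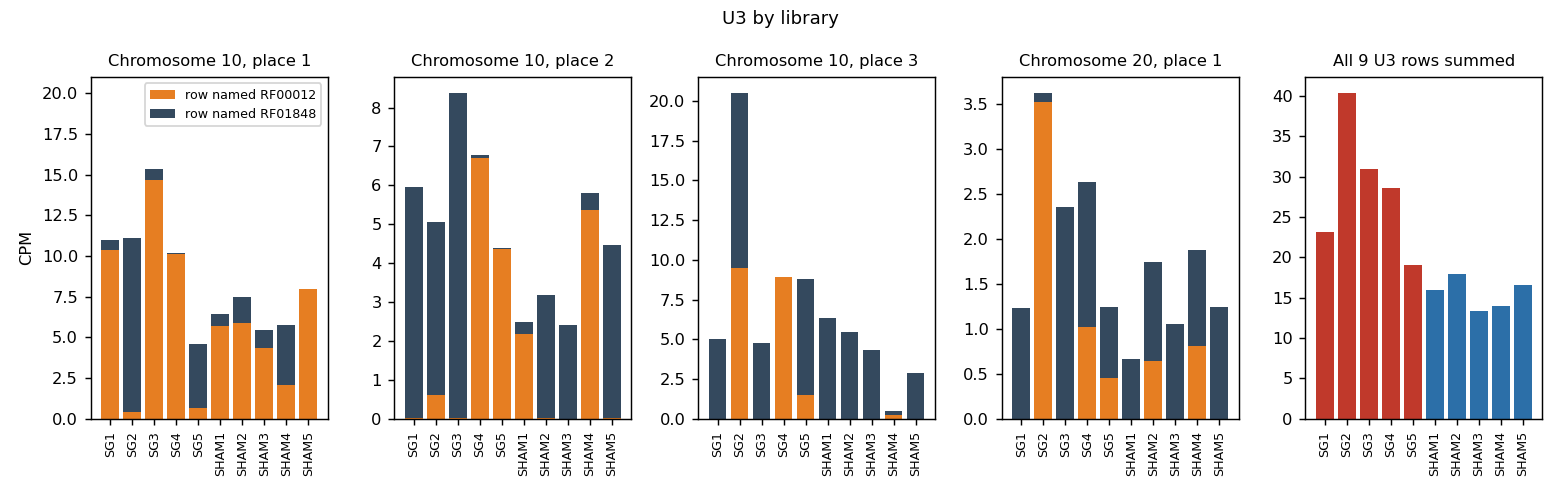
CPM of U3 in each library (vertical, linear axis) at 4 annotated sites, with the row named RF01848 in dark blue stacked on the row named RF00012 in orange, and, at the right, all 9 rows summed, SG in red and SHAM in blue. Colours change place between libraries within a site, while the SG sums lie at 19 to 40.3 and the SHAM sums at 13.3 to 17.9.

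All 4 sites had positive values. Summed by site, the log2 fold changes were 0.65 ± 0.30, 0.72 ± 0.32 and 1.32 ± 0.65 on chromosome 10 and 0.75 ± 0.42 on chromosome 20, none below an unadjusted p of 0.05 in edgeR (0.054, 0.0502, 0.0711 and 0.11; adjusted p 0.865 to 0.967). The sequences of the copies were not compared here, and reads could be divided among sites as well. The 3 sites on chromosome 10 lie inside Tex14, a testis gene, on its strand. Its gene sum of -5.05 ± 1.94 rests on 1 assembled row of the opposite strand with 1684 counts in SHAM 5 and 0 in all other libraries; the annotated Tex14 row had at most 27 counts. Of the U3 proteins and other C/D partners, 0 of 11 passed and 9 had a negative log2 fold change, with 0 below an unadjusted p of 0.05. Among them were the methyltransferase gene Fbl at -0.37 ± 0.24, Nop58 at -0.24 ± 0.13 and Snu13 at -0.21 ± 0.11.

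U8 (RF00096), which is needed for the large ribosomal subunit, had 0.645, 1.39, 1.22, 1.29 and 1.18 CPM in SG and 0.883, 0.41, 1.36, 1.37 and 0.488 in SHAM at chr10:55656405-55656540. SHAM 2 and SHAM 5 were the lowest, and the groups overlapped (0.32 ± 0.42). Vault RNA (RF00006), a part of the vault particle, had 0.985 to 3.13 CPM in SG and 1.24 to 3.16 in SHAM, with a log2 fold change of 0.07 ± 0.40. Tep1, the gene of a protein found in both vault and telomerase particles, was at 0.17 ± 0.13.

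RNAs of the minor spliceosome, which removes a rare class of introns, and of histone messenger RNA processing mostly had low counts. U11 (RF00548) at chr5:150455816-150455949 averaged 6.415 FPKM and 83.3 counts and had 0.574 to 1.66 CPM in SG and 0.429 to 1.52 in SHAM (0.22 ± 0.43). The U12 locus on chromosome 7 averaged 0.9012 FPKM (-0.28 ± 0.44), the U4atac locus 0.835 FPKM (-0.48 ± 0.47), and the 4 tested U7 loci, of 25 annotated, ran from -0.58 to 0.20. Of 13 U6atac loci 1 entered the test, a copy at chr10:93482382-93482474 opposite Tlk2 with a mean of 12.8 counts. It had 0.0703, 0.123, 0.142, 0.0869 and 0.126 CPM in SG and 0.224, 0.167, 0.175, 0.178 and 0.31 in SHAM. All SG libraries lay below all SHAM libraries, as they did for 0.264% of the 41681 tested isoforms. The log2 fold change was -0.96 ± 0.34 (edgeR unadjusted p = 0.0191, Benjamini-Hochberg adjusted p = 0.866). Protein genes of the minor spliceosome, 8 in number, included 0 that passed, with a median of -0.04. The only telomerase RNA locus, RF00024 on chromosome 4, had a mean of 1 count and was not tested.

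Over all 297 tested rows, edgeR with Benjamini-Hochberg adjustment called 0, as it did 0% of the 41681 isoforms. At an unadjusted p under 0.05 there were 6 rows, 2.02% of the tested members, where the share over all isoforms was 4.95%. Of the 6, 2 were higher in SG (2.68% of all isoforms were) and 4 lower (2.27%), and the median log2 fold change was -0.04 against 0.00 over all isoforms. The 2 include the U3 row RF00012 at chr10:74778189-74778403, which cannot be read alone. With overlapping loci summed, 5 of 281 tested rows were under an unadjusted p of 0.05 in edgeR, 1 higher and 4 lower. Groups did not overlap for 0 rows on the higher side (0.47% of all isoforms) and for 2 on the lower side, 0.673% of the members against 0.264%. In the 297, 135 values were positive and 162 negative, where 50.1% of all isoforms were positive. DESeq2 called 1 member, against 1.15% of the 39364 isoforms it tested, and 8 were under an unadjusted p of 0.05 (6.57% of all). With the isoforms of every other gene summed, 8 of the 297 were under an unadjusted p of 0.05 in edgeR, against 4.04% of all rows in that fit. A 95% interval within a 2-fold change either way was reached by 91 of the 297.

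**Figure D3:**
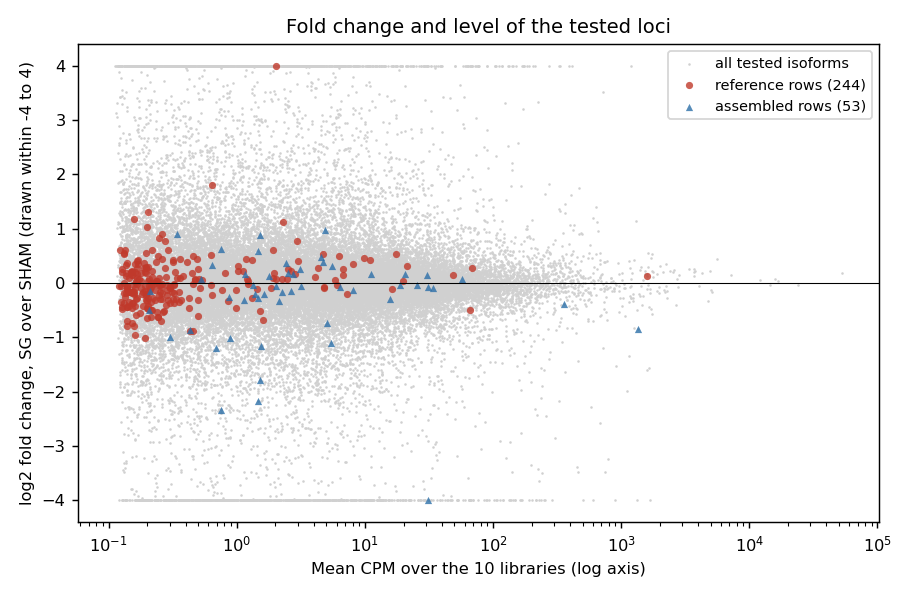
Log2 fold change of SG over SHAM (vertical, values beyond 4 drawn at the edge) against mean CPM over the 10 libraries (horizontal, log axis) for all 41681 tested isoforms in grey, 244 reference loci in red and 53 assembled rows in blue. Members lie around 0 at every level, mostly below 1 CPM, and the points at the edges are RF00012 and RF01518 rows described in the text.

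The call by DESeq2 was an H/ACA locus of family RF00413 at chr9:16513857-16513987, 131 nt long, with no host gene. It had 0.387, 0.291, 0.193, 0.326 and 0.413 CPM in SG and 0.554, 0.577, 0.702, 0.507 and 0.595 in SHAM. No SG library reached the lowest SHAM library, as for 0.264% of all tested isoforms, and the mean was 36.5 counts. The log2 fold change was -0.88 ± 0.28 in edgeR (unadjusted p = 0.0104, Benjamini-Hochberg adjusted p = 0.866) and -0.89 in DESeq2 (adjusted p = 0.0273). The other 3 tested loci of this family lay higher, up to 0.44.

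Among H/ACA loci the table lists H/ACA box 20 (RF00401, chr1:48027142-48027271) in Tcp1, a chaperonin subunit gene. It had 0.188, 0.168, 0.541, 0.326 and 0.241 CPM in SG and 0.0898, 0.076, 0.0819, 0.127 and 0.202 in SHAM. Only SHAM 5 reached into the SG range. The log2 fold change was 1.3 ± 0.46 on a mean of 16.9 counts (edgeR unadjusted p = 0.0188, adjusted p = 0.866), and its host stood at 0.06 ± 0.16. RF00554 in Eif4a1, the gene of a translation initiation helicase, had 16.7, 28.6, 27.6, 15.1 and 16.1 CPM in SG and 14.8, 11.9, 10.2, 16.9 and 17.4 in SHAM. SG 2 and SG 3 were high and the other libraries overlapped, at 0.53 ± 0.25, or 0.37 without SG 2, with Eif4a1 at 0.02 ± 0.15. Of 130 tested H/ACA loci, 49 were higher and 81 lower in SG, with a median of -0.08, and of the 9 H/ACA protein genes 0 passed. Dkc1, the pseudouridine synthase of these particles, was at -0.12 ± 0.20.

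RF01295 in Kpna4, an importin gene, is of a family without a class here. It averaged 126.4 FPKM and was at 0.15 ± 0.14. For C/D loci 32 of 52 were higher in SG, 8 of them rows of U3, with a median of 0.07. RF00567, C/D box 17, had 56.7, 108.6, 59.6, 105.2 and 46.7 CPM in SG and 67.8, 67.8, 75.8, 62.3 and 39.7 in SHAM. SG 2 and SG 4 were above every SHAM library, and the other SG libraries lay within the SHAM range. Its log2 fold change of 0.27 ± 0.30 was 0.08 without SG 2, and Snx5, a gene of endosome sorting, was at -0.10 ± 0.13.

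Families described in the table as Cajal body RNAs gave 5 tested loci of 13. Any such RNAs in families without a class are not among them. Small Cajal body RNA 10 (RF01296, chr4:157700593-157700920) in the condensin gene Ncapd2 averaged 171.3 FPKM, against 1.65 for its host. It had 70, 50.1, 57.3, 60.7 and 36.2 CPM in SG and 80.1, 92.4, 119.1, 53.5 and 42.3 in SHAM. SHAM 1 to SHAM 3 lay above every SG library and the other 2 within the SG range (-0.50 ± 0.30, from -0.66 to -0.28 with 1 library left out), with Ncapd2 at -0.35 ± 0.23. The other 4 loci had positive values, from 0.31 to 0.56, and are named after their values were seen: both RF00478 loci in Atg16l1 were at 0.35 ± 0.29 and 0.46 ± 0.26.

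**Figure D4:**
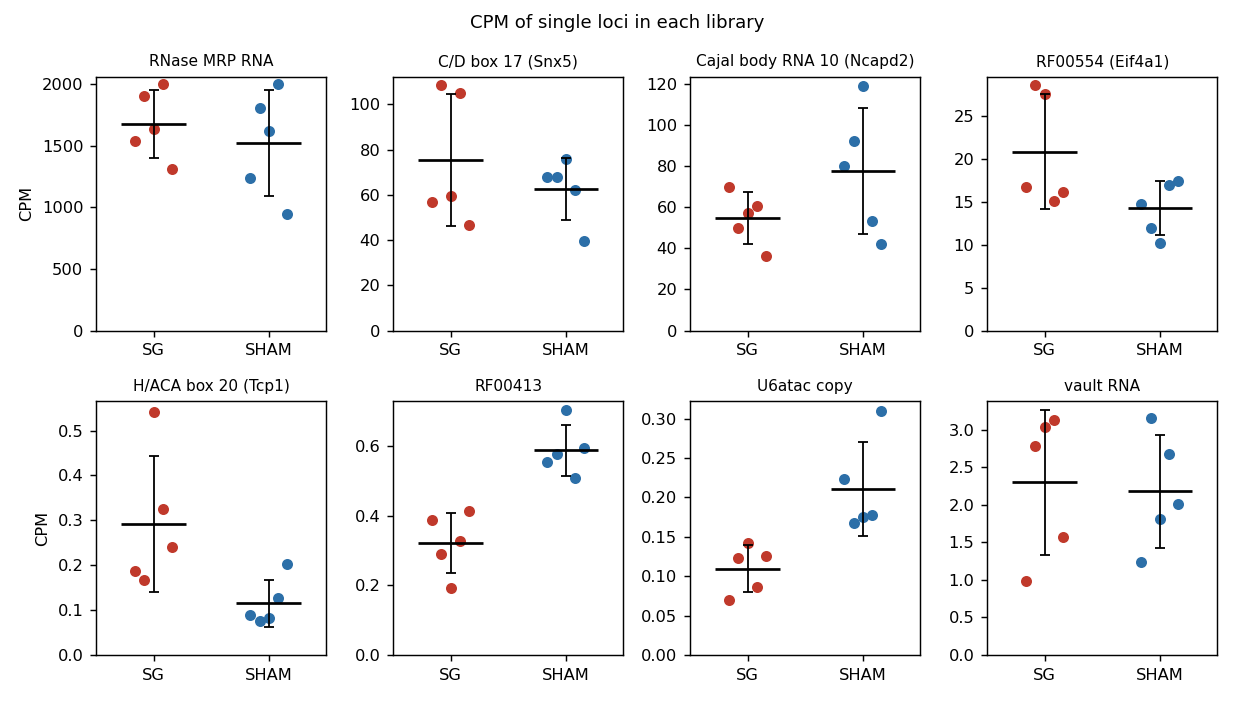
CPM of 8 loci in each library (vertical, linear axes from 0), with SG in red and SHAM in blue; lines and bars are the mean and SD of 5 libraries. The RF00413 and U6atac loci show SG below SHAM with no overlap, H/ACA box 20 overlaps in 1 SHAM library, and the 5 others overlap more widely.

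Summed by class, the spread between libraries differed in direction. C/D loci summed to 101.1, 183.0, 114.9, 163.5 and 85.9 CPM in SG and to 111.6, 107.2, 113.4, 101.7 and 73.3 in SHAM. SG 2 and SG 4 were the highest and SHAM 5 the lowest of the 10. A few loci made up most of this sum, which averaged 129.7 CPM in SG and 101.5 in SHAM. RF00567 alone averaged 75.3 CPM in SG and 62.7 in SHAM, with SDs of 29.2 and 13.7. The 9 rows of U3 together averaged 28.4 and 15.5 CPM. The SD of the C/D sum was 41.63 CPM in SG, or 33.6 without SG 2, and 16.35 in SHAM. For H/ACA loci it was 30.81 in SG, or 18.2 without SG 2, and 11.32 in SHAM. Cajal body loci went the other way, with 17.32 in SG and 33.37 in SHAM, as did the other named RNAs, with 279 and 431.3. These rest largely on single loci. The SD in SG and SHAM was 12.6 and 30.7 CPM for RF01296 alone, and 277.6 and 429.2 for RNase MRP RNA alone. The differences in spread were not tested. Without SG 2 the mean of the C/D sum in SG was 116.3 CPM against 101.5 in SHAM. The spread of CPM within a group, as a share of its mean, had a median of 38.8% in SG and 26% in SHAM over the 41 loci of at least 100 counts. Over all 244 tested reference loci it was 38.9% and 37.1%. Both sets include single rows of U3, which cannot be read alone. The Kupffer and stellate cell markers were high in SG 2, where the C/D and H/ACA sums were also high. SHAM 5 had the next highest Kupffer marker sum, 418.4 FPKM, and the lowest C/D sum. The part of these markers in the result was not tested. In bulk tissue, fewer cells of a type and less RNA per cell cannot be told apart.

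**Figure D5:**
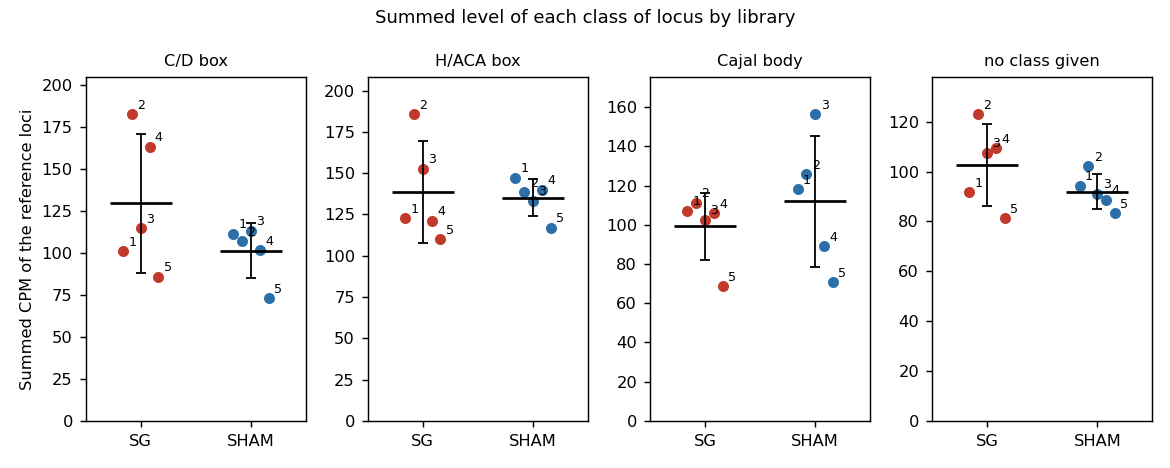
Summed CPM of reference loci by class (vertical, linear axes from 0) in each library, numbered by replicate, with the mean and SD of the 5 SG (red) and 5 SHAM (blue) libraries. SG 2 is the highest point for C/D, H/ACA and unclassed loci, and SHAM 5 the lowest of its group in all 4 classes.

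Host genes and loci were set side by side without a test of likeness. Of 256 tested hosts 0 passed in edgeR, 13 were under an unadjusted p of 0.05 (4.01% of all genes were, 2.41% higher in SG and 1.6% lower), and the median log2 fold change was -0.03. Ribosomal protein hosts, a group picked after values were seen, had positive values in 19 of 24 with a median of 0.23, where 48.6% of all genes were positive, and 8 were under an unadjusted p of 0.05, all of them higher in SG. Ribosomal protein genes have many processed copies that could share their reads, which was not tested, so these values are uncertain. Rpl5 was the largest, at 0.55 ± 0.11, and Rpsa at -0.06 ± 0.09. Of the 22 tested loci inside these genes 9 were positive and 13 negative, with a median of -0.05, and the difference between hosts and loci was not tested. Per length, 27 of 368 locus and host pairs had the locus above its host, led among tested loci by the Slc1a1, Ncapd2 and Snx5 pairs, and the median ratio was 0.065. Among the 135 tested pairs 22 had the locus above its host, with a median ratio of 0.178.

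Of the 48 tested loci opposite a gene 12 were positive, with a median of -0.19, and of 134 in same-strand hosts 68 were, with a median of 0.02. Their difference was not tested. The sources used here do not say that the libraries keep strand, and of the table's 7148 assembled rows of 1 exon 5363 have none, so reads of such a locus and of the gene opposite cannot be told apart. The 54 assembled rows were 211 to 19758 nt long, with a median of 1238.5 nt, and 20 of the 53 tested were positive. The most abundant, named RF01518 on chromosome 14 (4269 nt, 4 exons), had 1640.4, 903.8, 783.5, 685.9 and 902.0 CPM in SG and 2326.2, 1872.7, 1882.8, 1842.6 and 776.1 in SHAM. SHAM 5 lay within the SG range and the other SHAM libraries above it (-0.84 ± 0.32; edgeR unadjusted p = 0.0287, adjusted p = 0.866). Any other assembled isoforms that overlap it could share its reads, which was not tested. The row opposite Cyp3a18 described above was at -0.38 ± 0.67. Other assembled rows of high level or small p differed in direction. RF00400 opposite Plxna2 was at 0.08 ± 0.18, RF00576 on chromosome 19 at -0.10 ± 0.12 and RF00619 on chromosome 18 at -0.08 ± 0.11. RF00396 was at 0.39 ± 0.20 and RF00426 at 0.63 ± 0.33. A second RF01518 row on chromosome 5 had 309.8 CPM in SHAM 4 and was listed at 0 in the 9 other libraries.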

How the data were processed

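RNA from 10 rat livers was depleted of ribosomal RNA (about 5 µg of total RNA, RNA integrity number above 7.0) and sequenced as paired-end libraries, per the labels' protocols. The build Rnor_6.0 and the tools HISAT2 2.0.4, StringTie 1.3.4, cutadapt 1.9 and FastQC 0.10.1 are listed, per the submitters' processing notes. For each isoform and library the authors deposited an estimated count and an FPKM value in a single table, per the file headers.

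Estimated counts were rounded and tested in R 4.3.3 with edgeR 4.0.16 (quasi-likelihood test, TMM scaling, Benjamini-Hochberg adjustment at 0.05) over all isoforms with a mean of at least 10 counts, and again over gene sums. CPM is the count scaled to the library total. DESeq2 1.42.0, limma 3.58.1 on log2(FPKM + 0.1) and log2(FPKM + 1), RLE scaling, other count minimums, family sums, a replicate block and each library left out were alternatives. Sums of overlapping loci, loci beside gene sums and the U3 sum were added after the data were seen. On simulated counts for the 41681 isoforms of SG against SHAM, the test recovered 11% of 100 isoforms changed 2-fold and 30% of 100 changed 4-fold, with 1 false call.

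Members and lists were chosen with earlier results of these data known. Loci were named if they passed, had the 5 smallest p in either direction or the 10 highest mean CPM, or belonged to the families of RNase P and MRP, telomerase, vault, U3, U7, U8, U11, U12, U4atac and U6atac RNA. The rule also covered hosts of those loci, hosts of 3 or more loci, and up to 2 genes of smallest p in each partner list, with Dkc1, Fbl and Nop58. Not every host and partner gene under it is named, and some loci are given only within a range. Of 19 listed snoRNA host gene names 1 was matched, and it was not tested. The host start windows and the microRNA come from RefSeq (GRCr8), and locus sequences were not analysed here.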

Additional observations from a re-analysis of the deposited data

Results flagged for a closer look

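Of 74 groups of 5 libraries examined for named loci, 7 held a library set far from its group. Each case is a library whose gap to its nearest neighbour was at least 0.71 of the group's whole range. For values with a normal distribution, about 1 in 20 groups would meet this by chance. CPM with libraries at 0 are not such values, and any count in 1 library meets it where the rest are at 0. The 7 cases are therefore not read as an excess. The RNase P copy RF00009 at position 61398148 of chromosome 1 had 0.0912 CPM in SHAM 2, with the rest of SHAM between 0.333 and 0.406. U8 (RF00096) had 0.645 CPM in SG 1, with the rest of SG between 1.18 and 1.39.

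For U3, whose rows cannot be read alone, RF00012 on chromosome 20 had 3.52 CPM in SG 2, with the rest of SG between 0 and 1.02. In the same family RF00012 at 74778189 on chromosome 10 had 0.228 CPM in SHAM 4 and was at 0 elsewhere in SHAM. Among assembled rows, RF01518 on chromosome 14 had 1640.4 CPM in SG 1 and 685.9 to 903.8 in the rest of SG. RF01518 on chromosome 5 had 309.8 CPM in SHAM 4 and 0 in the rest of SHAM. RF00576 on chromosome 19 had 41.8 CPM in SHAM 3 and 32.4 to 34.6 in the rest of SHAM.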

How the results depend on the processing

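Called isoforms numbered 0 in edgeR, 453 in DESeq2 and 3 and 2 in limma with a pseudocount of 0.1 and 1 FPKM. Called genes were 35 in DESeq2, and called Rfam loci 1 in DESeq2 and 0 in limma. With 1 library left out edgeR called 0 to 3 isoforms, 0 to 1 genes and 0 Rfam loci. RF00413 on chromosome 9 (-0.89) and summed U3 (0.87) passed in DESeq2 and not in edgeR, and limma was not run on the U3 sum. Summed U3 was lowest without SG 2, at 0.69.

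Same-numbered libraries do not pair: their deviations correlated at 0.00499, -0.00905, -0.0113, -0.0198 and 0.0228, and 1 of 5 correlated best with its own number. With the replicate block 0 isoforms, 0 genes and 0 Rfam loci were called, summed U3 was 0.82, and RF00012 at 74757884 turned to -0.24.

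Of the values recomputed, 705 kept direction and side of the threshold and 34 turned direction; the cause was not tested. RF00012 at 74757884 was -0.42 and -0.29 in limma, and RF00066 at 20279628 was 0.03 with either pseudocount. Summing a family took in its assembled rows and gave -0.13 for RF00066 and -0.38 for RF00009. These repeat the values of the assembled rows on chromosomes 7 and 12, which hold most of the counts of their families. The turns in direction counted for RF00066 on chromosomes 1 and 2 and RF00009 on chromosomes 16 and 20 rest on those rows. With 1 library left out, RF00066 ran from -0.38 to 0.62 on chromosome 1, from -0.04 to 0.37 on chromosome 2 and from -0.11 to 0.05 on chromosome 9. RF00009 ran from -0.44 to 0.24 and from -0.18 to 0.02 at 189345450 and 246973112, and from -0.09 to 0.36 on chromosome 16. The ranges were -0.38 to 2.14 for RF00012 at 74765385, -0.02 to 0.20 for RF00400, -0.09 to 0.27 for RF00006, -0.29 to 0.17 for RF00007 on chromosome 3 and -15.70 to 0.00 for RF01518 on chromosome 5.

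The median 95% interval of the 297 tested rows reached 0.91 on the log2 scale to either side, and 1.10 over all isoforms. Only 244 of the 857 reference loci reached the minimum count.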
